A study of Mus musculus with 8 samples.

Results

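The genes described here are 38 mouse genes of the interferon response: the receptor chains for type I and type II interferon, the factors that carry their signal to the nucleus, and antiviral, GTPase, IFITM and chemokine genes that interferon is known to induce. They were taken from a named list, not by a measured value, but earlier results of these data were known when the list was made. They are set beside the 21887 protein-coding genes of the mm10 gene table, which lists Mx1 and Mx2 as transcribed pseudogenes and the other members as protein-coding. Peaks of the transcription factor C/EBPα from 6 libraries were merged wherever they overlapped by at least 1 bp, which gave 259446 regions, and a region was counted for a gene when it lay within 10 kb of the gene body. This gave 282 regions for 37 of the 38 genes, with 21 regions lying near 2 or more of the genes, and no region for Oas2.

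Type I interferons bind a receptor made of IFNAR1 and IFNAR2, and interferon gamma binds one made of IFNGR1 and IFNGR2. Type I signalling acts through STAT2 and IRF9 on the interferon-stimulated response element (ISRE), whereas interferon gamma signalling acts on the gamma-activated site (GAS). C/EBPα is a basic leucine zipper factor that drives myeloid differentiation from bone marrow progenitors, and several interferon-induced genes are known to be transcribed in stem and progenitor cells without infection.

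C/EBPα occupancy was mapped by CUT&RUN, which cuts and releases DNA at sites where an antibody has bound, in progenitors sorted from bone marrow as lineage negative, KIT high to intermediate and FLT3 positive. The cells were wild type (WT) or carried either of 2 variants, named DC and DE, of an enhancer 165 kb upstream of Zeb2. The labels give neither the changed bases nor the strain, age or sex of the mice. Each genotype had 2 anti-C/EBPα libraries, replicate 1 from batch 1 and replicate 2 from batch 2, and whether replicates came from separate mice is not stated, so p-values measure the spread between these libraries. Samples with control IgG were not analysed here, so no IgG signal could be set beside the values. The only background used was the one contained in the deposited peak values.

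The 6 peak lists held from 50221 to 169943 peaks, the most in DC replicate 1, and read totals were not given. For each peak the pileup, the whole number of reads or fragments stacked over the summit, was recovered from the deposited fold enrichment and p-value. Pileups were scaled so that the 23480 regions called in all 6 libraries had a median log2 difference of 0 between libraries. The median unscaled pileup at these regions ran from 24 in DC replicate 2 to 58 in DC replicate 1. All 7 progenitor marker genes of a fixed list (Kit, Flt3, Cd34, Spi1, Cebpa, Runx1 and Myb) lay within 10 kb of a region that both WT libraries called, and so did 4 of 4 neutrophil, 3 of 3 plasmacytoid dendritic, 3 of 4 B-cell, 1 of 3 erythroid, 1 of 3 T and NK and 0 of 3 non-blood markers. Occupancy at a gene is no measure of its expression.

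Most of the interferon response genes lay near C/EBPα-bound regions. In WT cells, 31 of the 38 genes (81.6%) had a region that both libraries called, against 56.7% of all genes. In DC cells 33 genes (86.8%) had such a region, against 60.7% of all genes, and in DE cells 29 (76.3%), against 58.0%. A region called in all 6 libraries lay near 27 genes (71.1%), against 50.5% of all genes. The genes had a median length of 15.6 kb, and all genes one of 17.2 kb. Genes near each other share regions, so the 38 genes are not independent of each other.

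Of the 282 regions, 54 (19.1%) were called in all 6 libraries, where 9.05% of all 259446 regions were. All 282 lie within 10 kb of a gene, while the 259446 were not limited in that way. The share among regions within 10 kb of any gene is not given here. A further 20 of the 282 regions were called in 5 libraries, 55 in 2 to 4 and 153 in 1. DC replicate 1 alone held 89 of those 153, which is 31.6% of the 282 regions, and it alone held 43.6% of all regions. Of the 282 regions the WT libraries called 116 and 111, the DC libraries 208 and 104, and the DE libraries 93 and 104, so DC replicate 1 stood above the other 5 libraries. The 54 regions were not unusually strong: the median one had a mean scaled pileup above that of 40.4% of the 23480 regions.

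**Figure D1:**
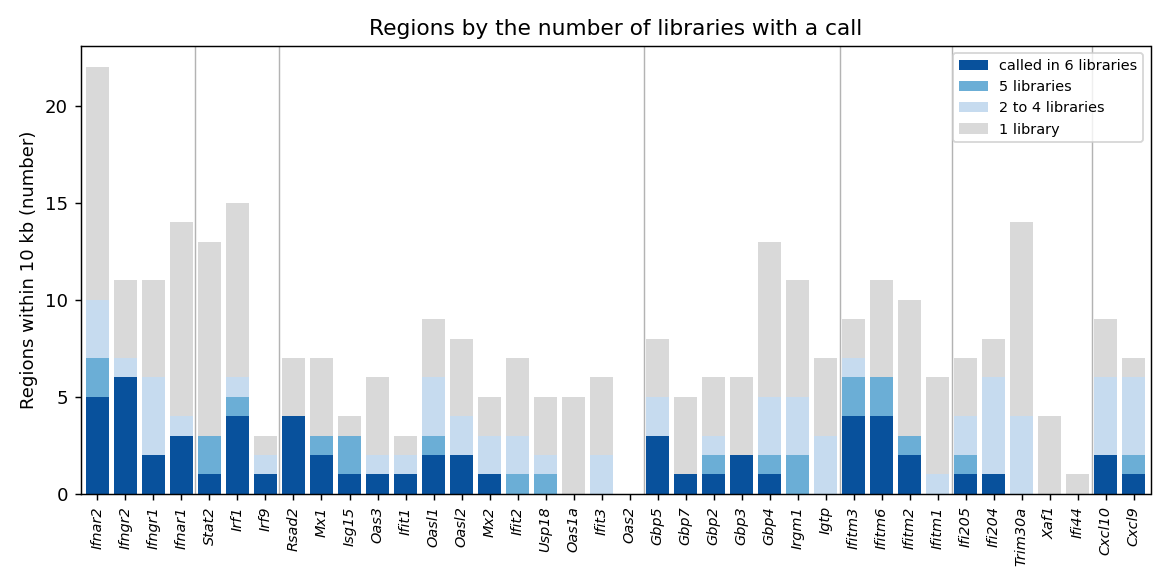
Number of regions within 10 kb of each gene (vertical axis), stacked by the number of libraries in which a region was called, with genes ordered by role: receptors, transducers, antiviral genes, GTPases, IFITM genes, others and chemokines. Ifnar2 had 22 regions, Oas2 had 0, and Ifngr2 had the most regions called in all 6 libraries, with 6.

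By role, all 4 receptor genes, all 3 transducer genes and both chemokine genes had a region called in all 6 libraries. So did 8 of 13 antiviral genes, 5 of 7 GTPase genes, 3 of 4 IFITM genes and 2 of the 5 others. The receptors took 16 of the 54 regions. No region shared by the 2 WT libraries lay near Ifit3, Oas1a, Oas2, Ifitm1, Ifi44, Xaf1 or Trim30a. In DC the genes without a shared region were Ifit3, Oas1a, Oas2, Ifi44 and Xaf1, and in DE they were Ifit2, Ifit3, Oas1a, Oas2, Usp18, Igtp, Ifitm1, Ifi44 and Xaf1.

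Promoter sequence was at hand for 32 of the 38 genes, in 37 windows from 250 bases before to 50 bases after a transcription start (RefSeq, GRCm38.p6). It was not used for Mx1, Mx2, Ifi204, Oas2, Gbp4 and Usp18, which had no entry. A region called in all 6 libraries overlapped 13 of the 37 windows (35.1%), against 17.6% of all 32851 promoter windows. These 13 windows belonged to 12 genes: Ifnar1, Ifngr1, Ifngr2, Irf1, Irf9, Rsad2, Gbp2, Gbp3, Gbp5, Gbp7, Ifitm6 and Cxcl10. Windows of 9 genes met no region in any library: Cxcl9, Ifi205, Ifi44, Ifit1, Ifitm3, Isg15, Oas1a, Oasl2 and Xaf1. Isg15, which encodes a ubiquitin-like antiviral protein, and Ifit1, which encodes a sensor of viral RNA, are among the best known interferon targets, and their regions lay away from the start.

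The windows were searched on both strands for 4 motifs. The ISRE letters, GAAA and GAAA with any 2 bases between them, were found in 19 of the 37 windows (51.4%), which belong to 18 genes, against 3.44% of all promoter windows. The GAS letters TTCNNNGAA stood in 10 windows (27.0%), against 8.3%. The letters of the composite ETS-IRF element, GGAA and GAAA with any 2 bases between them, which PU.1 and IRF factors are known to share, were found in 5 windows (13.5%), against 2.72%. The C/EBP-like letters TTGCNNAA were found in 1 window, of Gbp3 (2.7%), against 10.8% of all windows. They stood in 0 of the 13 windows that overlapped a region called in all 6 libraries. Over all 5780 promoter windows that overlapped such a region they stood in only 12.1%, against 10.5% of the others. A count of 0 in 13 windows therefore does not show that these promoters lack C/EBP sites. Other forms of C/EBP site were not searched. Not all of the 13 windows held a summit. Those of Ifngr2 and Gbp3 and the window of the first Irf9 start held none. The ISRE letters stood in 5 of those 13 windows and in 14 of the other 24, and the GAS letters in 5 of 13 and 5 of 24. ETS-IRF matches overlapped an ISRE match in Stat2 and Igtp. A match is a string of letters, not a shown binding site.

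The promoters below show how the interferon letters lie against the C/EBPα summits. Each is written 5′ to 3′ on the strand of the gene and ends at the base before the start, with matches to the 4 motifs in capitals and positions counted back from the start. Isg15 (chr4:156200819-156200978, minus strand) holds 3 overlapping ISRE matches and had no region. Rsad2 (chr12:26456453-26456612, minus strand), the gene of the antiviral enzyme viperin, holds an ISRE match that begins 120 bases before the start, and the 6 summits lay between 61 and 39 bases before it. Gbp5 (chr3:142496684-142496933, plus strand), a guanylate-binding protein gene, holds a GAS, an ISRE, an ETS-IRF and another GAS match, and its summits lay between 145 and 89 bases before the start. Irf1 (chr11:53769854-53770013, plus strand), the gene of a transcription factor induced by interferon gamma, holds a GAS match that begins 90 bases before the start, with summits between 69 and 50 bases before it. Ifitm6 (chr7:141016893-141017142, minus strand), a membrane protein gene of myeloid cells, holds 2 ETS-IRF matches and a GAS match that begins 10 bases before the start, and its summits lay between 128 and 112 bases before it. Gbp3 (chr3:142559884-142560043, plus strand, the first of its starts) holds the C/EBP-like match and 2 overlapping ISRE matches, and a region was called over this window in WT replicate 2 alone.
Isg15: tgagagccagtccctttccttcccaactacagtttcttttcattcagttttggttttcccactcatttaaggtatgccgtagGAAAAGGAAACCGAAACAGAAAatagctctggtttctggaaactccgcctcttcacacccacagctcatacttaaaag
Rsad2: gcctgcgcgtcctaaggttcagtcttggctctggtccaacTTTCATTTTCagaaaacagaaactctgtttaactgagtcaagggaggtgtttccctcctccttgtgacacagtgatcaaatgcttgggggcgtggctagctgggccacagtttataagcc
Gbp5: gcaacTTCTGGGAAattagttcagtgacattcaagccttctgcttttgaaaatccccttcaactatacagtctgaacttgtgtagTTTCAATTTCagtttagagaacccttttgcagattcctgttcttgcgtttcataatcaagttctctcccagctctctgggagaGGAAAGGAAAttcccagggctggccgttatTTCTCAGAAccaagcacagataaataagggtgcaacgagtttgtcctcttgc
Irf1: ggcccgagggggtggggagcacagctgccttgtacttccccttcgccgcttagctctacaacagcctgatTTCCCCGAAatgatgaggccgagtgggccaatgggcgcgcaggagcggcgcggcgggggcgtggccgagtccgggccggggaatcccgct
Ifitm6: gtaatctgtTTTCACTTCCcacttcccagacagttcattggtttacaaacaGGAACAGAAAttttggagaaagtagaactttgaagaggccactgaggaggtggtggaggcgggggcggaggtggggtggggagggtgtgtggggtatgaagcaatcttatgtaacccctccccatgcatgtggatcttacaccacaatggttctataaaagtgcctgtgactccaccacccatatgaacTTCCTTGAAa
Gbp3: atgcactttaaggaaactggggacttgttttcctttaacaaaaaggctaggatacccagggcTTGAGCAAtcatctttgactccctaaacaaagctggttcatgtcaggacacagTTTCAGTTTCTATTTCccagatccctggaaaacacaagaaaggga

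**Figure D2:**
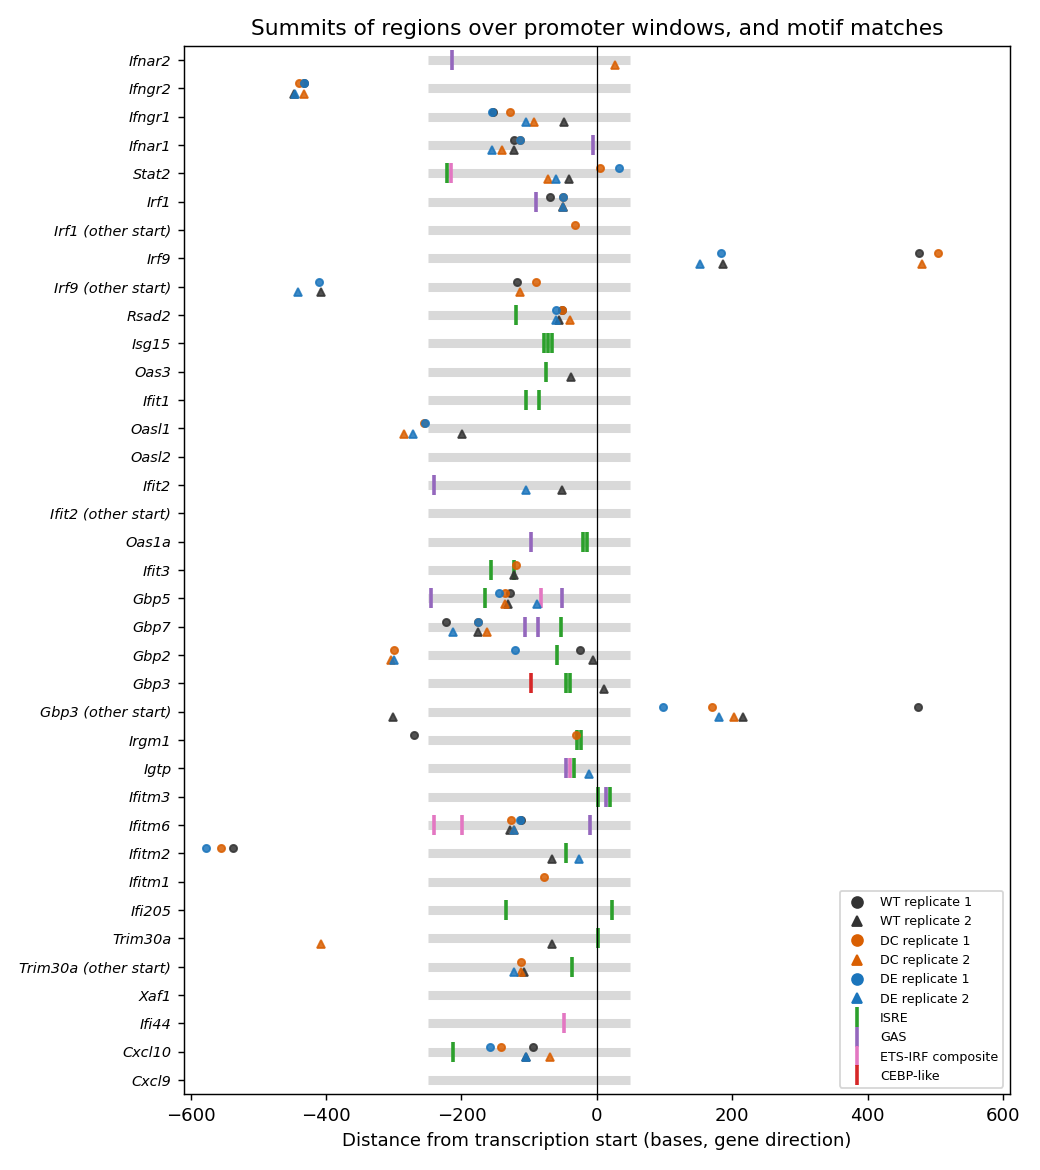
Position along each promoter in bases from the transcription start, in the direction of the gene, with the searched window in grey, motif matches as coloured bars and the summits of overlapping regions as points for each library. Rsad2, Irf1 and Ifitm6 each had 6 summits within a narrow stretch before the start, whereas Isg15, Ifit1 and Oas1a had ISRE matches and no summit.

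The 4 receptor genes were bound at or near their starts or ends, at high levels. All but Ifngr1 lie close together on chromosome 16, in the order Ifnar2, Il10rb, Ifnar1 and Ifngr2. At Ifnar1 the promoter region (chr16:91484868-91485311) had scaled pileups of 51.5 and 166 in WT, 83.4 and 135 in DC, against 75.3 and 106 in DE, always in the order of replicates 1 and 2. The 2 WT libraries were the lowest and the highest of the 6, so the genotypes overlapped. The Ifngr1 promoter region (chr10:19591053-19592194) reached 98.9 and 175 in WT, 119 and 127 in DC, with 131 and 164 in DE. The Ifngr2 promoter region (chr16:91545962-91547223) reached 181 and 134 in WT, 122 and 129 in DC, against 131 and 126 in DE. Both genotype ranges overlapped with WT at Ifngr1, while at Ifngr2 both WT libraries stood slightly above the rest, without passing the test between genotypes (limma, adjusted p of 0.05, with or without batch in the model). These 3 promoter regions exceeded 89.0%, 93.5% and 93.6% of the 23480 regions.

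Ifnar2 had no region over its promoter in more than 1 library. Its strongest region (chr16:91405499-91406316), which overlaps the end of Ifnar2 and the Il10rb gene, the receptor chain for interleukin-10, had scaled pileups of 147 and 126 in WT, 182 and 132 in DC, with 185 and 126 in DE. It was high in all 6 libraries, above 94.8% of regions, and the genotypes overlapped. Ifnar2 also had a strong upstream region 5.276 kb before the gene body (chr16:91366620-91367507), at 59.5 and 99.8 in WT, 103 and 88.9 in DC, against 96.2 and 112 in DE.

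Among the transducers, Stat2, which encodes a transducer of type I signalling, had 1 region called in all 6 libraries (chr10:128298117-128299232). It lies 5.264 kb beyond the gene and 0.03 kb from Il23a, an interleukin-23 subunit gene, and had scaled pileups of 138 and 99.8 in WT, 81.5 and 109 in DC, with 78.6 and 84.9 in DE. The Irf1 promoter region (chr11:53769728-53770126), shown above by its sequence, had 32.3 and 94.5 in WT, 52.5 and 85.9 in DC, against 41.0 and 81.5 in DE. Batch 2 was higher than batch 1 in each genotype there, as it was at Ifnar1. Irf9, which encodes the DNA-binding partner of STAT2, had a weaker region over its start (chr14:55603982-55604534), at 16.1 and 18.9 in WT, 21.6 and 27.6 in DC, with 28.4 and 34.0 in DE. Both WT libraries were the lowest and both DE libraries the highest at Irf9, but no comparison passed the test.

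The strongest region near any antiviral gene, and near any of the 38 genes, lay 3.694 kb upstream of Rsad2 (chr12:26460146-26460537). Its scaled pileup was 393 and 247 in WT, 361 and 239 in DC, against 271 and 259 in DE, above 99.3% of regions and at rank 159 of the 23480. It was high in every library and the genotypes overlapped. This region lies between Rsad2 and Cmpk2, another interferon-induced gene. The Rsad2 promoter region (chr12:26456373-26456735) had 74.7 and 78.8 in WT, 79.1 and 55.2 in DC, with 66.1 and 68.0 in DE, so the distal region exceeded the promoter in all 6 libraries.

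The other antiviral genes were bound at lower levels. Isg15 had a region 1.249 kb beyond its end (chr4:156197858-156198175), at 40.4 and 42.0 in WT, 18.5 and 27.6 in DC, against 15.9 and 40.8 in DE. Both DC libraries were below both WT libraries there, while DE replicate 2 lay between the WT libraries. Mx1 and Mx2, genes of GTPases that act against RNA viruses, each had a region at an end of the gene body. The Mx1 region (chr16:97462836-97463215) had 43.4 and 29.4 in WT, 40.1 and 41.4 in DC, with 36.8 and 44.2 in DE, and the Mx2 region (chr16:97535758-97536314) had 35.3 and 34.7 in WT, 22.9 and 15.3 in DC, against 28.4 and 12.5 in DE. The Mx2 region was higher in both WT libraries than in the other 4, a difference that did not pass the test.

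Oas genes encode enzymes that make the activator of RNase L. Oas3 had a region inside the gene (chr5:120775342-120775977) at 27.2 and 28.4 in WT, 26.6 and 42.9 in DC, with 27.6 and 22.6 in DE, and the neighbours Oasl1 and Oasl2 shared their strongest region (chr5:114921855-114922228), 0.915 kb before Oasl1, at 24.2 and 34.7, 23.5 and 38.3, and 24.3 and 21.5. Neither region set a genotype apart. Oas1a had 5 regions, each called in 1 library, with its strongest at 13.8 in DC replicate 2. Oas2 had none in any library.

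Ifit genes encode RNA-binding proteins that block viral translation. Ifit1 had a region 7.053 kb away, inside the related genes Ifit1bl1 and Ifit1bl2 (chr19:34633286-34633836), at 22.2 and 27.3 in WT, 35.8 and 36.8 in DC, against 19.2 and 31.7 in DE. Both DC libraries were the highest of the 6 there, without passing the test. The strongest Ifit2 region (chr19:34548116-34548317) had 19.2 and 22.1 in WT, 11.7 and 10.7 in DC, and 14.7 in DE replicate 2, with no call in DE replicate 1. Ifit3 had no region in both libraries of any genotype, and its strongest stood at 12.3 in DC replicate 1 and 12.5 in DE replicate 2. Usp18, the gene of the protease that removes ISG15 and limits receptor signalling, had a region over an end of the gene (chr6:121245777-121246059) at 18.2 and 15.8 in WT, 17.9 and 10.7 in DC and 10.2 in DE replicate 2.

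Guanylate-binding proteins (Gbp) and immunity-related GTPases (Irgm1 and Igtp) act against pathogens inside vacuoles and are induced mainly by interferon gamma. Gbp7 had a promoter region (chr3:142529848-142530469), also within 10 kb of Gbp5, at 51.5 and 68.3 in WT, 42.6 and 30.7 in DC, with 65.2 and 49.8 in DE. Both DC libraries were the lowest of the 6, and the test was not passed. The Gbp2 promoter region (chr3:142620115-142620860) had 40.4 and 70.4 in WT, 32.7 and 49.1 in DC, against 37.6 and 30.6 in DE, and the Gbp3 region (chr3:142560224-142560927), over the second start, had 26.2 and 39.9, 20.4 and 29.1, and 20.9 and 37.4. Gbp4 had a region 4.822 kb away inside Gbp9 (chr5:105110153-105110945), at 32.3 and 23.1 in WT, 36.4 and 24.5 in DC, with 27.6 and 27.2 in DE. The genotypes overlapped at Gbp3 and Gbp4, while at Gbp2 both DE libraries were below both WT libraries without passing the test.

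Irgm1 had no region called in all 6 libraries. Its strongest (chr11:48856388-48856978), 8.267 kb away, had 17.9 in WT replicate 2, 21.6 and 26.1 in DC, against 18.4 and 28.3 in DE. For Igtp the strongest region (chr11:58216886-58217134) was called in 2 libraries, at 15.1 in WT replicate 1 and 11.1 in DC replicate 1. These 2 genes had interferon letters at their promoters but weak C/EBPα calls that differed between libraries.

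IFITM genes encode small membrane proteins that stop viruses from entering cells, and those on chromosome 7 included some of the most strongly bound regions. The Ifitm6 promoter region (chr7:141016717-141017449), 5.973 kb upstream of Ifitm3, had 203 and 261 in WT, 153 and 186 in DC, with 224 and 210 in DE, above 97.8% of regions. Both DC libraries were the lowest, and the test was not passed. A region 0.846 kb beyond Ifitm3 (chr7:141008266-141008744) had 228 and 158 in WT, 200 and 166 in DC, against 110 and 174 in DE, and a region 9.776 kb beyond it (chr7:140998680-140999814) had 179 and 119, 154 and 121, and 192 and 140. The Ifitm3 promoter window itself met no region in any library. Ifitm2 was bound more weakly, at 20.2 and 32.6 in WT, 27.8 and 44.5 in DC, with 40.1 and 49.8 in DE at its strongest region, which lies inside Pgghg (chr7:140946885-140947548). Ifitm1 had no region in any WT or DE library, and its strongest stood at 6.18 and 16.9 in DC.

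Ifi204 and Ifi205 belong to a family of DNA-binding proteins that includes DNA sensors. The Ifi204 region at an end of the gene (chr1:173766816-173767198) had 52.5 and 64.1 in WT, 58.7 and 61.3 in DC, against 79.5 and 75.9 in DE, and the Ifi205 region (chr1:174040528-174041184), 8.773 kb upstream, had 94.9 and 56.7, 80.9 and 53.7, and 96.2 and 73.6. Both DE libraries were the highest at Ifi204, without passing the test. Trim30a, a gene of the TRIM family, had a region over a start (chr7:104465135-104465413) with 5.25 in WT replicate 2, 19.8 and 32.2 in DC and 19.2 in DE replicate 2. In batch 2, where all 3 genotypes had a call and the unscaled WT pileup was 5, the Trim30a pileup in DC was 6.13 times and that in DE 3.67 times that in WT. WT replicate 1 and DE replicate 1 had no call, so this region was not tested. Xaf1, a gene linked to cell death, and Ifi44 had only calls in single libraries, at 6.30 in WT replicate 2 and 4.94 in DC replicate 1 for the strongest.

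Cxcl9 and Cxcl10 encode chemokines that draw CXCR3-bearing lymphocytes. The Cxcl10 promoter region (chr5:92348704-92349175) had 51.5 and 99.8 in WT, 42.6 and 101 in DC, against 45.2 and 68.0 in DE, and batch 2 was above batch 1 in each genotype. A Cxcl10 region 4.684 kb upstream, inside Art3 (chr5:92353573-92353894), had 57.5 and 60.9 in WT, 34.0 and 35.3 in DC, against 27.6 and 36.2 in DE. The strongest Cxcl9 region (chr5:92318243-92318916), 2.415 kb beyond the gene, had 75.7 and 74.6 in WT, 59.3 and 61.3 in DC, with 41.0 and 47.6 in DE. At both of these distal chemokine regions the 2 WT libraries lay close together and above the other 4, but neither passed the test with or without batch in the model.

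**Figure D3:**
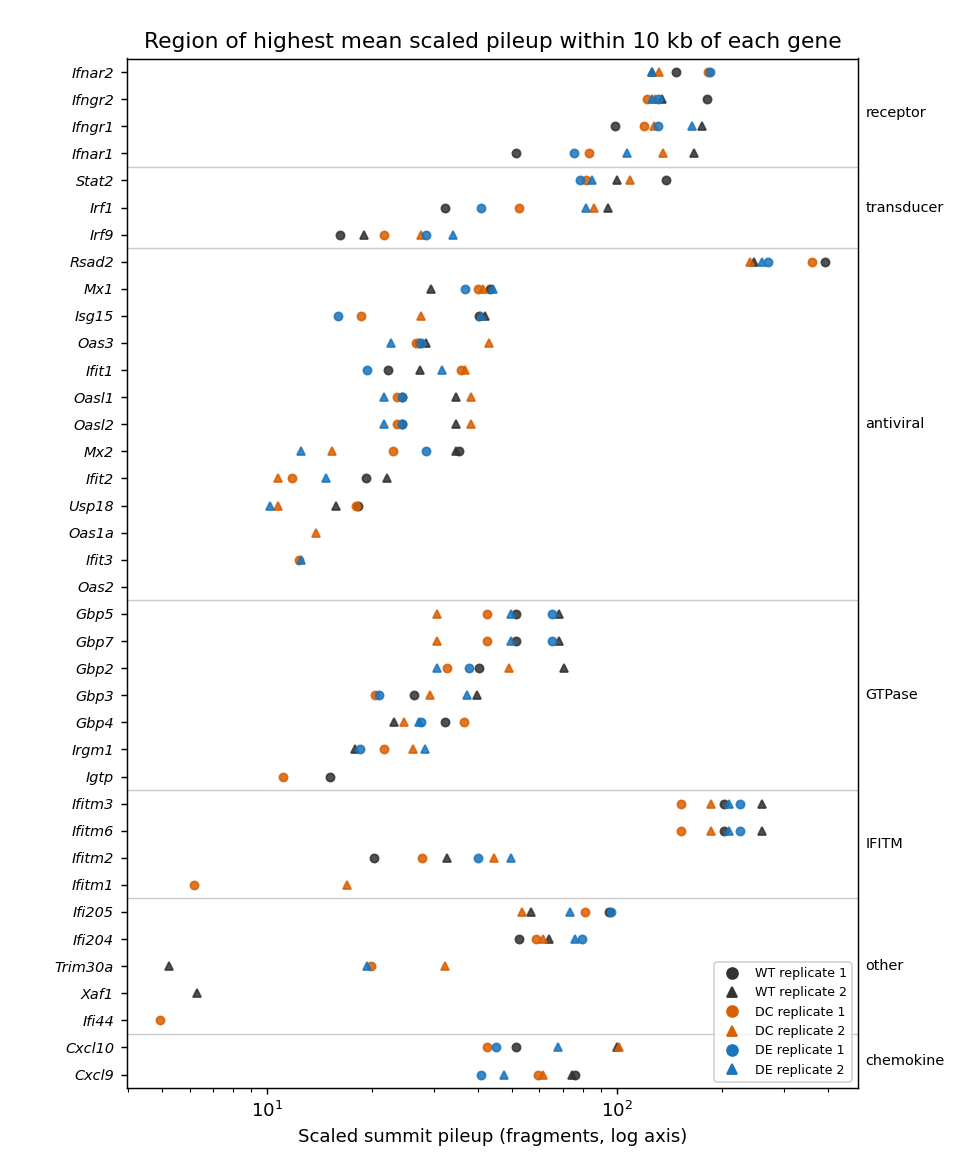
Scaled summit pileup (horizontal log axis) in each library at the region with the highest mean for each gene, with circles for replicate 1, triangles for replicate 2, and genes grouped by role. The values run from 4.94 at Ifi44 to 393 near Rsad2, and the colours of the 3 genotypes mix at most genes.

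Whether the enhancer variants changed occupancy was tested at the 54 regions called in all 6 libraries, with limma fitted over all 23480 such regions and p-values adjusted over all of them by the Benjamini-Hochberg method. Without batch in the model, 0 of 54 regions passed an adjusted p of 0.05 for DC against WT, DE against WT or DC against DE, and the background was 0.0% in each. The smallest adjusted p at the 54 regions was 0.354 for DC against WT, 0.952 for DE against WT and 1.0 for DC against DE. At an unadjusted p under 0.05 there were 4, 5 and 3 of the 54 regions, and 1876, 1144 and 557 of all 23480. The median log2 difference of the 54 regions was -0.15 for DC against WT and -0.16 for DE against WT, beside -0.02 and -0.00 over all regions, and 34 and 36 of the 54 lay below 0, as did 12162 and 11833 of the 23480. When libraries were scaled by their background instead, the medians of the 54 were 0.71 and 0.39, beside 0.84 and 0.55 over all regions, and 48 and 42 of the 54 lay above 0. A change of scaling moves all regions of a library by the same amount. The place of the 54 below all regions was therefore bound to be the same under both scalings. The sign of the difference depended on the scaling. DC and DE were compared with the same WT libraries.

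The labels pair the libraries by batch, and with batch as a replicate block a few regions passed. For DC against WT, 1 of 54 regions was higher (background 3.15%) and 2 were lower (background 1.17%). For DE against WT, 1 was higher (background 1.12%) and 1 was lower (background 0.264%). For DC against DE, 0 of 54 passed (background 0.0298%), with a smallest adjusted p of 0.235. At an unadjusted p under 0.05 with the block there were 12 of the 54 regions (22.2%) for DC against WT, 14 (25.9%) for DE against WT and 5 (9.26%) for DC against DE. Of all 23480 regions there were 3993 (17.0%), 2815 (12%) and 1925 (8.2%) in the same order. Lower than in WT were 10 of the 12 in DC and 10 of the 14 in DE. Over all regions more were higher than lower, at 2180 and 1813 in DC and 1593 and 1222 in DE. For DC against DE all 5 were lower in DC, beside 947 higher and 978 lower over all regions. Whether these shares and directions differ from those of all regions was not tested. The regions that passed were at Ifnar2, Gbp5 and Ifitm3.

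The Ifnar2 region that passed as lower lies inside Il10rb, 1.056 kb beyond Ifnar2 (chr16:91406645-91407107), next to the constant region at the gene's end. Its scaled pileup was 87.8 and 56.7 in WT, 35.2 and 21.5 in DC, against 41.0 and 23.8 in DE. Both WT libraries were above all 4 others. In each batch the Ifnar2 region was lower than in WT, at 0.401 and 0.378 times the WT value in DC and 0.467 and 0.419 times in DE. The log2 difference was -1.36 ± 0.32 (SE, n = 2 libraries per genotype, limma with block, adjusted p = 0.00431) in DC and -1.18 ± 0.32 (adjusted p = 0.0374) in DE. Without the block the adjusted p-values from limma were 0.413 and 0.992.

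The Gbp5 region covers the promoter (chr3:142496701-142496991) whose sequence is printed above. Its scaled pileup was 50.5 and 33.6 in WT, 19.8 and 10.7 in DC, with 21.8 and 14.7 in DE, with both WT libraries above all others. DC had 0.392 and 0.319 times the WT value in batches 1 and 2, and DE 0.431 and 0.438 times. The unscaled pileup in DC replicate 2 was only 7, where the median over all peaks of that library was 12. The difference of Gbp5 was -1.50 ± 0.39 in DC (limma with block, adjusted p = 0.0101, and 0.379 without), while that in DE, -1.20 ± 0.39, did not pass (adjusted p = 0.103). Another Gbp5 region, 2.754 kb upstream (chr3:142493538-142494180), had 25.2 and 29.4 in WT, 35.8 and 29.1 in DC, against 28.4 and 24.9 in DE. The upstream Gbp5 region was thus not lower in DC.

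The Ifitm3 region that passed as higher lies 4.615 kb beyond the gene (chr7:141004651-141004975), over the start of the gene model Gm33504. Scaled pileups there were 37.3 and 31.5 in WT, 74.7 and 78.2 in DC, with 82.8 and 58.9 in DE, so both WT libraries were below all others. DC had 2.00 and 2.48 times the WT value in the 2 batches, and DE 2.22 and 1.87 times. The Ifitm3 difference was 1.16 ± 0.29 in DC (limma with block, adjusted p = 0.00655) and 1.03 ± 0.29 in DE (adjusted p = 0.042), against 0.354 and 0.952 without the block.

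**Figure D4:**
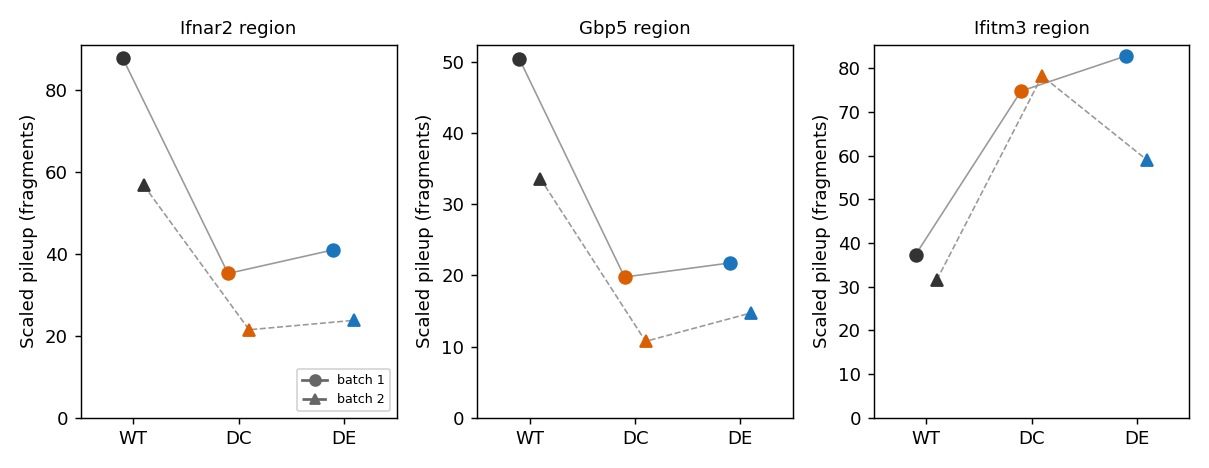
Scaled pileup (vertical axis, from 0) at the 3 regions that passed with batch in the model, for WT, DC and DE, with circles and solid lines for batch 1 and triangles and dashed lines for batch 2. The Ifnar2 and Gbp5 regions were highest in both WT libraries and the Ifitm3 region was lowest in them.

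These calls rest on few libraries. A fit with 1 library left out keeps only 1 library of that genotype, so a call can end through the loss of a library alone. How many calls over all regions ended in the same way is not given here. Leaving out any WT or DC library with batch in the model ended the DC calls at Ifnar2, Gbp5 and Ifitm3, except for Ifitm3 without WT replicate 1 (adjusted p = 0.0466, limma). For Ifnar2 the adjusted p then ran from 0.0521 to 0.128, for Gbp5 from 0.0873 to 0.244, and for Ifitm3 it was 0.0844 without WT replicate 2, 0.0853 without DC replicate 1 and 0.384 without DC replicate 2. The DE calls at both regions ended whichever of the 6 libraries was left out, with an adjusted p from 0.0505 to 0.299 at Ifnar2 and from 0.0896 to 0.372 at Ifitm3. The log2 differences kept their sign: in DC minus WT without a WT or DC library they ran from -1.42 to -1.30 at Ifnar2, from -1.65 to -1.35 at Gbp5 and from 0.94 to 1.37 at Ifitm3. Without DE replicate 2, the region 0.846 kb beyond Ifitm3 passed as lower in DE instead (log2 difference -0.98, adjusted p = 0.0338). With background scaling and batch in the model, the differences in DC were -0.50 at Ifnar2 (adjusted p = 0.528), -0.64 at Gbp5 (0.421) and 2.01 at Ifitm3 (0.0493). In DE they were -0.62 at Ifnar2 (limma, adjusted p = 0.722) and 1.58 at Ifitm3 (0.557), so both DE calls ended.

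**Figure D5:**
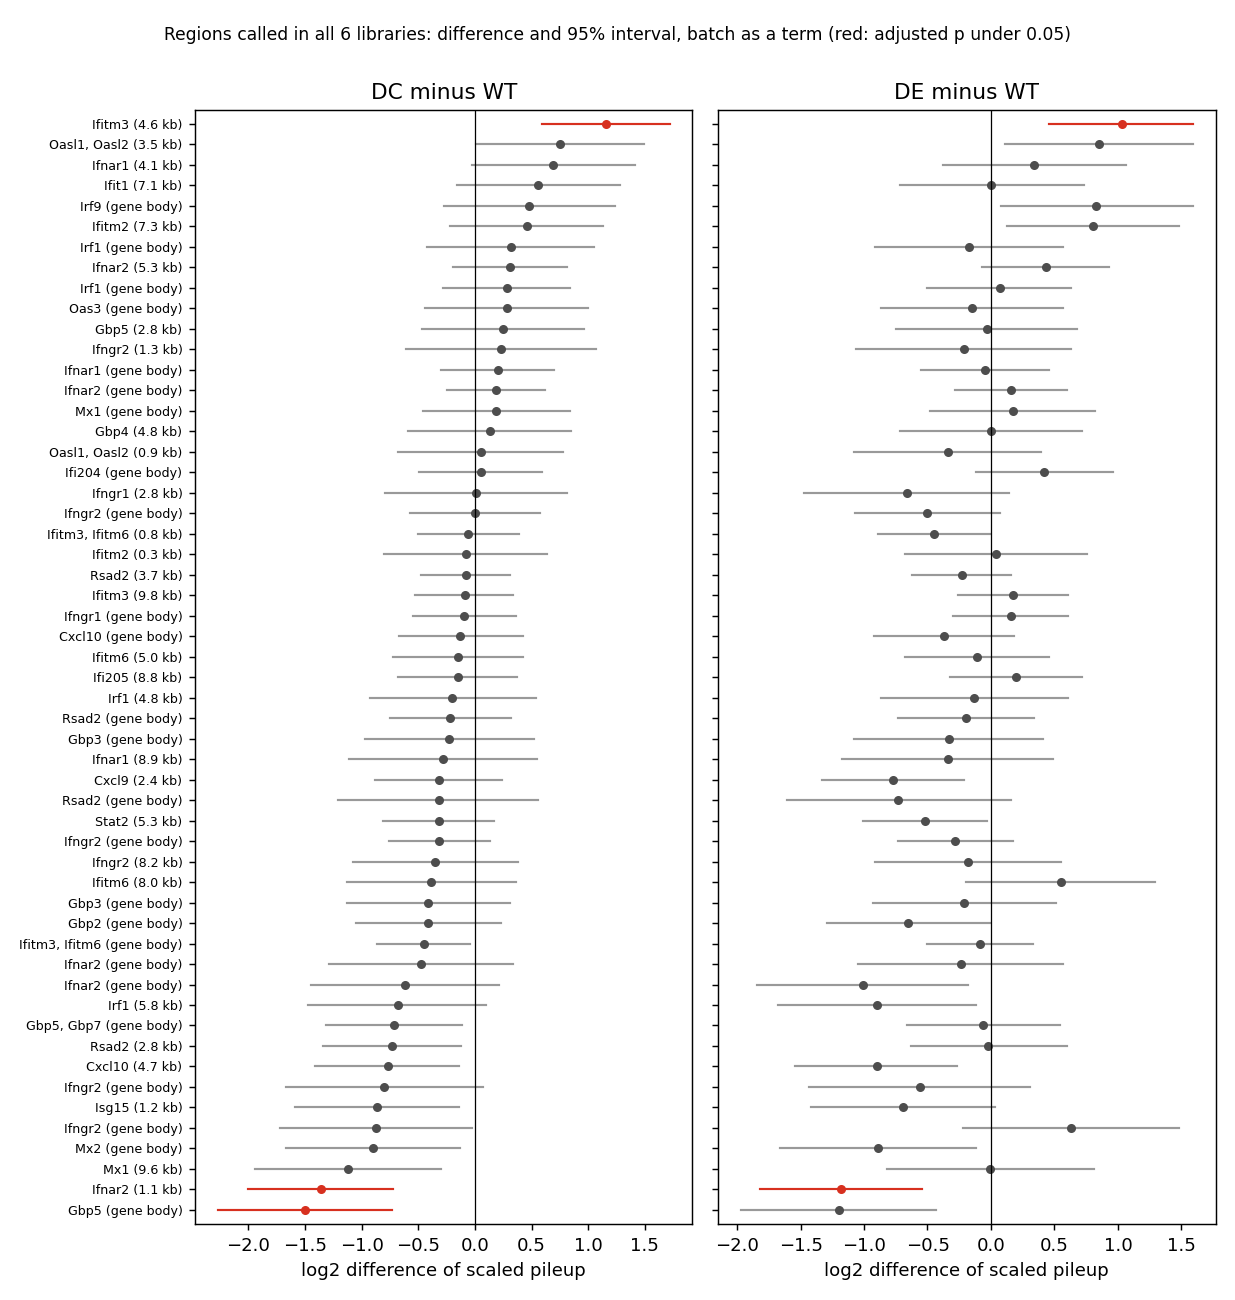
The log2 difference of scaled pileup with its 95% interval from the fit with batch as a term, for DC minus WT and DE minus WT, at the 54 regions called in all 6 libraries (red, adjusted p under 0.05). The gene is named with the distance from its body, and most intervals cross 0.

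Some regions were called in both libraries of a genotype and in neither library of another. Such a difference in calls is not a shown loss or gain of binding. Of the 74 regions called in both WT libraries, 1 (1.35%) was called in neither DC library, beside 3.23% of all 31297 regions of that kind, and 3 (4.05%) in neither DE library, beside 5.28%. Of the 87 called in both DC libraries, 4 (4.6%) were called in neither WT library, beside 10.9%, and 9 (10.3%) in neither DE library, beside 7.31%. Of the 74 called in both DE libraries, 3 (4.05%) were called in neither WT library, beside 6.55%, and 3 (4.05%) in neither DC library, beside 2.14%. These counts carry no test, since 2 libraries against 2 allow none that could pass 0.05.

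The regions concerned were weak, and their unscaled pileups are given here. A region 4.698 kb from Ifi204 (chr1:173742409-173742595) had 10 and 13 in WT and 10 and 5 in DE, with no call in DC. Regions called in WT and in neither DE library lay near Ifngr1 (12 and 11 in WT), Igtp (11 and 10) and Cxcl9 (17 and 17), each also called in DC replicate 1. Those called in DC and in neither WT library lay inside Ifi204 (19 and 7 in DC) and near Mx2 (15 and 7), Cxcl10 (19 and 11) and Ifitm1 (10 and 11). Of these, the Ifi204 region was also called in DE replicate 2 and the Mx2 region in DE replicate 1. Regions called in DE and in neither WT library lay inside Ifnar2 (16 and 6 in DE), Gbp2 (11 and 5) and Trim30a (15 and 5), and DC replicate 1 also called the Gbp2 region. The 9 regions called in DC and in neither DE library lay near Irf1, Igtp, Ifnar2 (2 regions), Cxcl9, Cxcl10 (2 regions), Oasl1 and Ifitm1. Apart from the Ifitm1 region and the Cxcl10 region already named, each was also called in a WT library. The highest of these 9 in DC replicate 1 was the Irf1 region (25 and 11 in DC), 1.04 kb before the gene, and the Oasl1 region (23 and 12 in DC) also had 32 in WT replicate 2. The 3 called in DE and in neither DC library were those named at Ifi204, Ifnar2 and Trim30a.

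A further list of 46 interferon pathway genes, none of them among the 38, was also near bound regions. Both libraries of WT called a region near 41 of them (89.1%), those of DC near 40 (87.0%) and those of DE near 39 (84.8%), beside 56.7%, 60.7% and 58.0% of all genes. Of their 506 regions, 73 (14.4%) were called in all 6, beside 9.05% of all regions. The 2 lists share regions: the one between Rsad2 and Cmpk2 and the one inside Gbp9 are among both the 54 and the 73. With batch in the limma fit, 3 of the 73 were higher and 1 lower in DC than in WT, and 1 was higher and 0 lower in DE, against the backgrounds given above. Without batch, 0 of the 73 passed in either comparison, with 6 and 5 at an unadjusted p under 0.05.

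The 4 regions that passed lay near Nlrc5, Trim25, Trex1 and Socs3. For these too, a fit with 1 library left out keeps only 1 library of that genotype, so a call can end through that loss alone. Near Nlrc5, an activator of MHC class I genes, the log2 difference was 1.12 ± 0.25 in DC (limma with block, adjusted p = 0.00167) and 0.94 ± 0.25 in DE (0.0266). At Trim25, a ubiquitin ligase that activates the RNA sensor RIG-I, it was 1.26 ± 0.33 in DC (limma with block, adjusted p = 0.0101), and near Trex1, a nuclease that clears cytosolic DNA, 1.31 ± 0.38 (0.0285). Near Socs3, an inhibitor of cytokine receptor signalling, it was -1.37 ± 0.30 in DC (limma with block, adjusted p = 0.00167). With the block, the calls at Trim25 and Trex1 ended whichever WT or DC library was left out (adjusted p from 0.0712 to 0.304 and from 0.123 to 0.375, limma). The DC call near Nlrc5 ended without WT replicate 2 (0.0685), DC replicate 1 (0.185) or DC replicate 2 (0.0993), and its DE call whichever library was left out (0.0507 to 0.267). The Socs3 call ended without WT replicate 2 (0.142) or DC replicate 2 (0.178). Background scaling with the block gave an adjusted p of 0.0575 in DC and 0.602 in DE near Nlrc5, 0.0312 at Trim25, 0.0209 near Trex1 and 0.527 near Socs3, where the log2 difference was then -0.51.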

How the data were processed

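C/EBPα CUT&RUN was analysed from 6 deposited peak lists in mm10, 1 per library. The submitters' processing notes name MACS2 2.2.9.1 beside HOMER, SAMtools, Bowtie2 and Trimmomatic and give no roles. In the deposited lists the authors give for each peak a fold enrichment (a ratio over local background), a −log10 p and −log10 q, and a score of 10 times the −log10 q. The lists are limited to q of 0.1. Read totals are not given, so depth is unknown.

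The summit pileup was solved from the deposited fold and −log10 p as a whole number, within a tolerance of 5% of a step, for at least 99.986% of peaks in each library. In DC replicate 2, 5.05% of peaks had 2 whole solutions, of which the closer was used, and at most 0.0192% had in the others. The pileup was log2-transformed, scaled by the median over regions called in all 6 libraries, and tested with limma 3.58.1 (trended variance, R 4.3.3), with Benjamini-Hochberg adjustment at 0.05. The labels give the batches that pair the libraries. The correlation of batch deviations between genotypes was 0.55 (WT and DC), 0.41 (WT and DE) and 0.38 (DC and DE) over 23480 regions.

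Named are, for each gene, its region of highest mean scaled pileup, each region past 0.05 in a fit with or without batch, and each region called in both libraries of a genotype and neither of another. Other regions named were chosen after their values were seen. Genes and lists were chosen with earlier results of these data known. Python 3.11.15, numpy 2.4.6, scipy 1.17.1, pandas 2.3.3 and matplotlib 3.10.9 were used. Alternatives covered scaling, batch, peak threshold, joining of peaks, distance, the regions tested and leaving out libraries.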

Additional observations from a re-analysis of the deposited data

How the results depend on the processing

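With the batch pairing as a replicate block, 3 regions passed for DC against WT and 2 for DE against WT, where 0 passed without it. With the block and background scaling they were 1 and 0. With the block and 1 library left out they ran from 0 to 3 in DC and from 0 to 1 in DE. Alternatives added after seeing the data, all with the block, gave 3 and 1 over regions called in the 4 libraries compared, and 9 and 4 within 50 kb. No setting gave a call for DC against DE, or any call without the block.

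The counts of genes with a region in both libraries stayed within 1.5 times the counts at 10 kb given above. In WT they ran from 24 within 1 kb to 37 within 50 kb, and the shares over all genes at these distances are not given here. Regions in both libraries of a genotype and neither of another depended on the settings. Joining by summits gave 3 for WT not DC. Within 50 kb the counts were 2 for WT not DC, 6 for WT not DE, 19 for DC not WT, 20 for DC not DE, 10 for DE not WT and 6 for DE not DC. Within 1 kb they were 0, 0, 1 and 1 for WT not DC, WT not DE, DC not WT and DC not DE. With 1 batch at a time they ran from 30 to 34 for WT not DC and 31 to 43 for WT not DE. They ran from 27 to 122 for DC not WT and 28 to 127 for DC not DE. For DE not WT they ran from 20 to 24, and for DE not DC from 12 to 28. Batch 1 includes DC replicate 1, the library with the most peaks. The shares over all regions under these settings are not given here, so these counts show nothing particular to the interferon genes.

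Absence of a call is not absence of binding, and depth is unknown. Members of the Ifit, Gbp, Oas, Ifitm, Ifi200 and Trim30 families resemble each other, and how reads that fit several places were treated is not given. Many named regions lie at other genes, and nearness does not tie a region to a gene. Regions called in fewer than 6 libraries were tested only in the alternative over the 4 libraries compared. The cause of the changes between settings was not tested.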

Other observations

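Outside the 10 kb window but within 50 kb, with batch as a replicate block in the limma fit, 6 more regions near these genes passed for DC against WT and 2 of them for DE against WT. This window was added after seeing the data, and it held 129 tested regions, 54 of them within 10 kb. Over all regions tested, 3.15% passed as higher and 1.17% as lower in DC, and 1.12% and 0.264% in DE. The region with the greatest difference of the 6 lies 13.5 kb from Oasl2 (chr5:114883076-114883387), with a log2 difference of 2.25 ± 0.33 in DC (adjusted p = 8.42e-07, limma) and 1.41 ± 0.33 in DE (0.00897). A region 19.8 kb upstream of Ifitm6 (chr7:141036701-141036986) differed by 1.63 ± 0.32 in DC (adjusted p = 0.000261, limma) and by 1.02 ± 0.32 in DE (0.0814). A region 42.9 kb from Igtp (chr11:58250508-58250903) was higher in both, by 1.12 ± 0.30 in DC (adjusted p = 0.014, limma) and 1.22 ± 0.30 in DE (0.0134). One 33.6 kb from Ifngr2 (chr16:91597646-91598215) was higher in DC by 0.74 ± 0.22 (adjusted p = 0.0268, limma). Regions 28.8 kb from Ifnar1 (chr16:91455795-91456268) and 21.3 kb from Ifi205 (chr1:174053061-174053494) were lower in DC, by -1.58 ± 0.41 and -1.39 ± 0.38 (adjusted p = 0.0116 and 0.0157, limma). Other genes lie within these distances, and no region was tied to a gene.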
